A study of Mus musculus with 33 samples.

Results

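The 7 ribose-methylated nucleotides described here lie in the 28S ribosomal RNA of the mouse, between positions 1303 and 1868 of the human numbering. They are every listed 28S site with a human position from 1200 to 2000, apart from A1511, A1521 and G1612. They are 7 of 108 sites that the study lists over its ribosomal RNAs, 66 of which are in 28S. Ribose methylation was measured by RiboMeth-seq in 33 libraries, 3 each from 11 groups of whole-cell RNA from mouse tissue. The groups were adult brain, heart, kidney, liver and lung, the same 5 tissues of E16.5 embryos, and whole head of E9.5 embryos, where E stands for the embryonic day. The E9.5 samples are titled brain and described as whole head. The labels name no strain, sex, adult age, genotype, treatment or pooling of embryos. The 3 libraries of a group carry numbers and no statement that they came from separate animals, so p-values measure the spread between these libraries, which may be technical. The files measure ribosomal RNA alone, so the tissue labels could not be set against marker genes.

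Methylation of the 2′-hydroxyl of ribose is placed on ribosomal RNA in the nucleolus by fibrillarin, the methyltransferase of the box C/D ribonucleoprotein. A box C/D small nucleolar RNA base-pairs with the target and so picks the nucleotide, and each guide is usually made from an intron of a host gene. In humans, SNORD18 guides Am1313, SNORD104 guides Cm1327 and SNORD38 guides Am1858. The methyl group protects the neighbouring phosphodiester bond from alkali, so few fragments of alkali-treated RNA begin or end there. The RiboMeth-seq score turns that gap into a number. The number of read ends at the nucleotide is divided by a weighted mean over its 6 neighbours on either side, and the ratio is subtracted from 1, with 0 as the floor. A score near 1 stands for nearly complete protection and a score near 0 for none.

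The sequence around each site is shown because the score is computed within it. Each run holds the 6 neighbours on each side as the deposited mouse 28S reference gives them, 5′ to 3′, and the capital marks the methylated nucleotide.
LSU-Gm1303: cgacccGucuuga
LSU-Am1313: ugaaacAcggacc
LSU-Cm1327: aggaguCuaacgc
LSU-Gm1509: ggacccGaaagau
LSU-Gm1747: ucuuggGgccgaa
LSU-Am1858: guaagcAgaacug
LSU-Cm1868: cuggcgCugcggg
In mouse numbering these are positions 1131, 1141, 1155, 1336, 1563, 1674 and 1684 of the 28S sequence. The human number is 172 higher at the first 3 sites, 173 higher at Gm1509 and 184 higher at the last 3. The modified nucleotide is G at 3 sites, A at 2 and C at 2. The median G and C content of the 7 windows was 53.8%, the same as over the 66 listed 28S sites, against 69.2% over all 4719 windows of this length in 28S. Cm1868 stands in the window richest in G and C, with 11 of 13 bases, and Am1858 in the poorest, with 6 of 13. Gm1509 alone has another listed site inside its window, A1511, which lies 2 nucleotides downstream.

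The libraries held between 463388 and 35156406 read ends, with a median of 8896504, and 4 libraries held under 2000000. The shallowest was E16.5 lung library 3, where the mean of the 12 neighbours was 28.6 read ends at Am1313 and 21.2 at Gm1509. Over all libraries the median of that flanking mean lay between 737 at Gm1509 and 1752 at Am1858. The counting error of a single score had a median between 0.00506 at Gm1747 and 0.0131 at Cm1868, and reached 0.105 at Cm1868. It covers counting alone, since reads without molecular identifiers are not independent molecules. In the authors' overview of group means, certain scores had been replaced by scores from 5′ read ends alone, which the overview's legend calls barcode correction. This touched 8 of the 77 group means of the 7 sites, at Am1313 and Cm1868 only. Values are uncorrected unless they are called corrected.

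Between these sites the score was low. Over the 554 nucleotides from the first site to the last, the 544 unlisted ones had a median score of 0.138 and a 95th percentile of 0.472. None of them reached 0.75, and 18 reached 0.5. The highest, 0.647, belonged to the G at mouse position 1564, next to Gm1747. Averaged over the 33 libraries, Gm1303 scored 0.883, Am1313 0.906, Cm1327 0.926, Gm1509 0.935, Gm1747 0.951, Am1858 0.917 and Cm1868 0.681. With the correction, Am1313 averaged 0.960 and Cm1868 0.761. Cm1868 was thus the lowest of the 7 on either score.

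**Figure D1:**
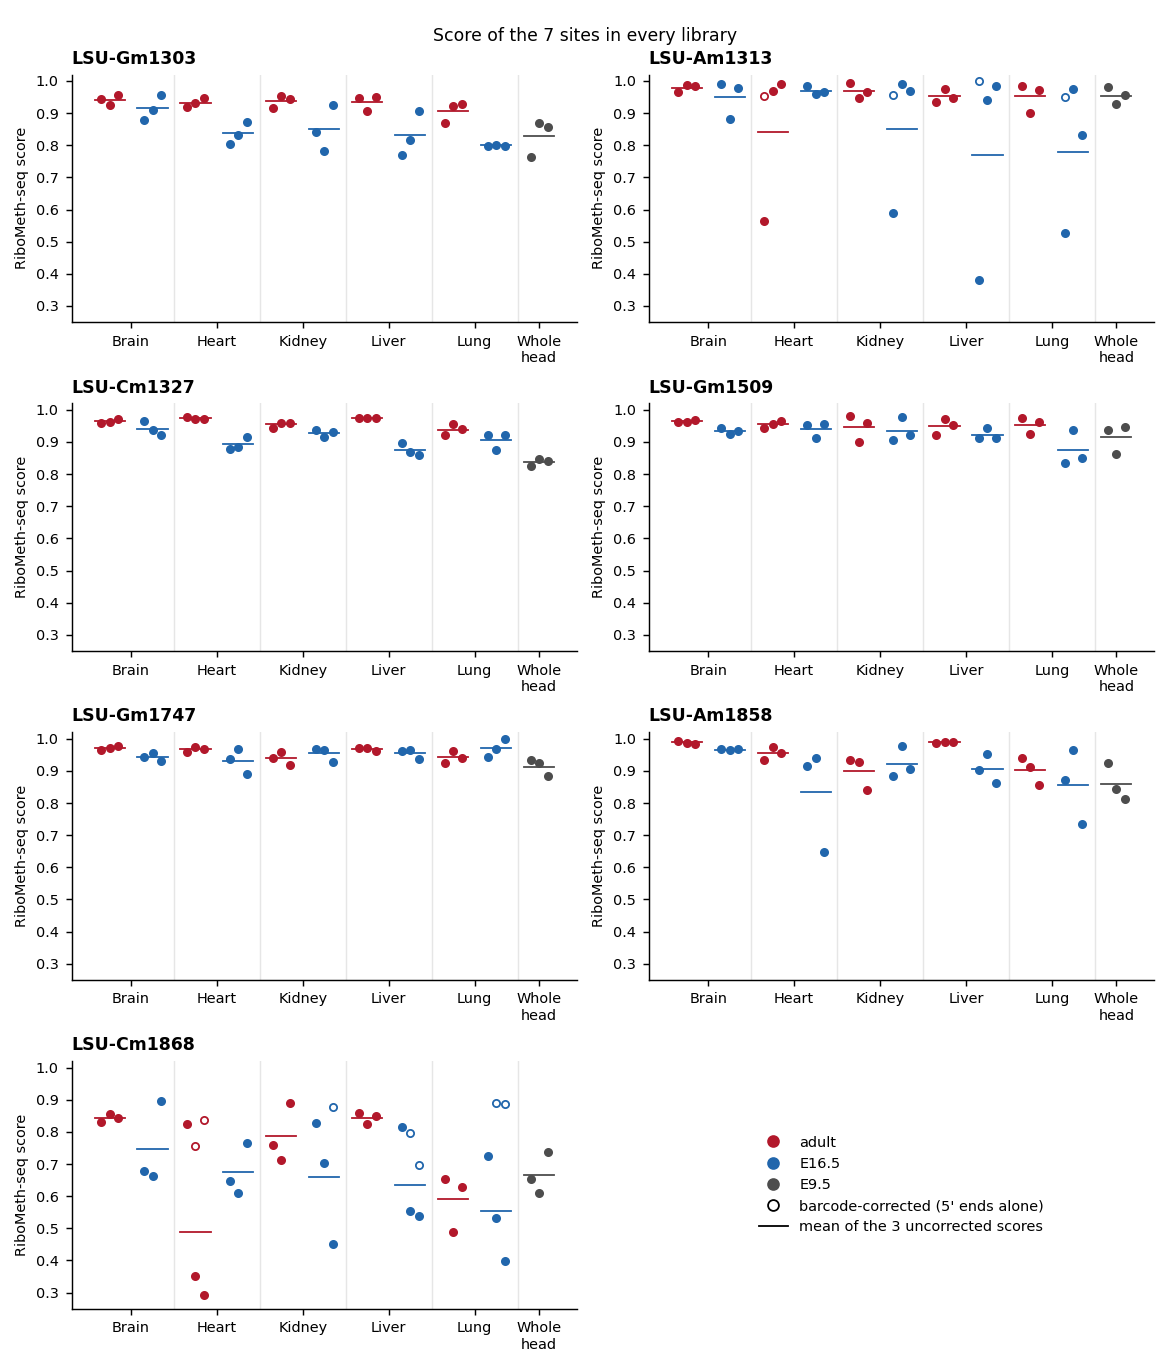
Score of each site in each of the 33 libraries, with adult libraries left of E16.5 libraries of the same tissue and E9.5 whole head at the right. Filled points are uncorrected scores, open points the scores from 5′ read ends alone that the authors used instead, and lines the means of 3 uncorrected scores. Cm1327 runs in narrow groups between 0.824 and 0.978, whereas Cm1868 spreads from 0.291 to 0.897.

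Cm1327 and Gm1303 scored higher in adult tissue than in E16.5 tissue. Over the 5 tissues, Cm1327 averaged 0.961 in adults and 0.909 at E16.5, and Gm1303 averaged 0.931 in adults and 0.846 at E16.5. Gm1509 differed less, at 0.953 in adults and 0.921 at E16.5. The other 4 sites did not pass the test on this average. Of the 7 sites, 3 were called higher in adults, among 107 sites tested of which 36.4% were called higher and 1.87% lower. The median difference was 0.0523 over the 7 sites and 0.0324 over all 107, so the direction of these 3 sites was the common one.

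Cm1327 scored 0.959, 0.961 and 0.973 in adult brain, against 0.966, 0.937 and 0.923 in E16.5 brain. Adult heart gave 0.978, 0.970 and 0.973, against 0.878, 0.883 and 0.916 in E16.5 heart. In kidney the adult scores were 0.945, 0.960 and 0.960 and the E16.5 scores 0.938, 0.916 and 0.930. The adult libraries lay above all E16.5 libraries in heart and kidney, while in brain E16.5 library 1 lay above 2 of the adult libraries. Adult liver gave 0.975, 0.974 and 0.975, against 0.897, 0.870 and 0.861 in E16.5 liver. Adult lung gave 0.922, 0.955 and 0.940, against 0.923, 0.874 and 0.923 in E16.5 lung. The liver groups stood apart by more than the spread of either, and the lung groups overlapped.

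The mean difference of Cm1327 over the 5 tissues was 0.0523 ± 0.00724 (SE; limma adjusted p = 1.58e-06), with the adult mean above the E16.5 mean in 5 of 5 tissues. By tissue it was 0.0988 ± 0.0162 in liver (limma adjusted p = 2.69e-05) and 0.0812 ± 0.0162 in heart (limma adjusted p = 0.00128). The differences of 0.0321 in lung, 0.0266 in kidney and 0.0226 in brain did not pass. In heart 1 of the 7 sites was called higher, against 5.61% of all tested sites, and in liver 2 of 7, against 26.2%. In brain limma called 0 of the 7 sites, with 0 at an unadjusted p below 0.05, against 7.48% of all sites called. In kidney it called 0 of 7, with 1 at an unadjusted p below 0.05, against 11.2% of all sites called. The heart call was lost from 3′ ends alone, with equal library medians, after thinning to the shallowest library and when fitted on its own groups, and the liver call with equal medians and after thinning. The call on the average was lost when all libraries were given equal medians, where the difference was 0.0187 (limma adjusted p = 0.142).

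Gm1303 scored 0.945, 0.924 and 0.957 in adult brain, against 0.879, 0.909 and 0.955 in E16.5 brain. Adult heart gave 0.918, 0.931 and 0.948, against 0.805, 0.832 and 0.873 in E16.5 heart. Adult kidney gave 0.915, 0.953 and 0.943, against 0.840, 0.781 and 0.926 in E16.5 kidney. The stages were separate in heart and overlapped in brain and kidney. Adult liver gave 0.946, 0.908 and 0.951, against 0.769, 0.817 and 0.907 in E16.5 liver. Adult lung gave 0.870, 0.921 and 0.929, against 0.799, 0.802 and 0.797 in E16.5 lung. Every adult library lay above every E16.5 library in liver, by a narrow margin, and in lung, where the E16.5 libraries were nearly equal.

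The mean difference of Gm1303 over the 5 tissues was 0.0844 ± 0.0159 (SE; limma adjusted p = 0.000108), again with the adult mean higher in 5 of 5 tissues. It passed in liver, at 0.104 ± 0.0356 (limma adjusted p = 0.0280), and in lung, at 0.107 ± 0.0356 (limma adjusted p = 0.0420). In lung 2 of the 7 sites were called higher, against 14% of all tested sites. The liver call was lost without adult library 1 or 3 or E16.5 library 1 or 2, where the difference was 0.0732 to 0.0986 (limma adjusted p = 0.0827 to 0.16). The lung call was lost without adult library 2 or 3 or any 1 of the E16.5 libraries, where the difference was 0.0959 to 0.109 (limma adjusted p = 0.0662 to 0.146). The heart difference of 0.0955, the kidney difference of 0.0879 and the brain difference of 0.0276 did not pass. Both calls were also lost from 3′ ends alone, with the nearest 2 neighbours, with equal medians and when fitted on their own groups. The liver call was lost after thinning too. The lung call was lost on a log2 scale and on the corrected score without E16.5 lung library 3. From 3′ read ends alone the average difference was 0.0429 and did not pass (limma adjusted p = 0.145; 20.6% of all sites called), whereas from 5′ ends alone it was 0.114 ± 0.0142 (limma adjusted p = 7.99e-08; 60.7% of all sites called higher).

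Gm1509 scored 0.975, 0.924 and 0.962 in adult lung, against 0.835, 0.937 and 0.851 in E16.5 lung. The groups overlapped, since E16.5 library 2 lay above adult library 2. The lung difference was 0.0790 ± 0.0258 (limma adjusted p = 0.0420), and the average over tissues was 0.0324 ± 0.0116 (limma adjusted p = 0.0291). The lung call was lost without adult library 1 or 3 or E16.5 library 1 or 3, where the difference was 0.0593 to 0.0749 (limma adjusted p = 0.12 to 0.149). From 5′ ends alone the lung difference was -0.00186, and the lung call was also lost from 3′ ends alone, on a log2 scale, with equal medians and after thinning. It was lost too when fitted on its own groups, without the 4 shallowest libraries, and on the corrected score without E16.5 lung library 3. The average lost its call without E16.5 heart library 2, adult kidney library 1, E16.5 kidney library 1 or adult liver library 2, where it was 0.0291 to 0.0301 (limma adjusted p = 0.0524 to 0.0547), and also from 3′ ends alone, with equal medians and after thinning. Only in brain did the stages separate at this site, with 0.961, 0.961 and 0.969 in adults and 0.943, 0.925 and 0.934 at E16.5, and that difference of 0.0297 did not pass.

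**Figure D2:**
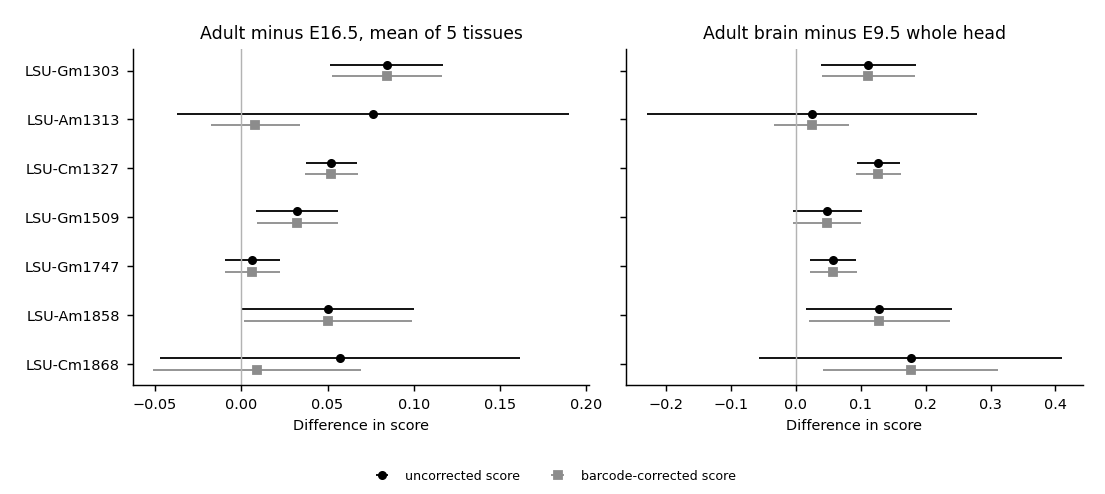
Difference in score with its 95% confidence interval at each site, adult minus E16.5 averaged over 5 tissues at the left and adult brain minus E9.5 whole head at the right. Black points are uncorrected scores and grey squares corrected scores. At the left the intervals of Gm1303, Cm1327 and Gm1509 lie above 0, that of Am1858 starts barely above 0 though its adjusted p did not pass, and the correction narrows the interval of Am1313 and moves its difference toward 0.

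Stage and inferred library set cannot be told apart within a tissue. The sets were not taken from the labels. Groups corrected by the authors at SSU-Am1031 were taken as set 3, those corrected at SSU-Gm683 as set 2, and the rest as set 1. This divides the 11 groups into 3 sets, but corrections at other sites, among them SSU-Am99, SSU-Am1383 and LSU-Gm4340, cross them. No tissue had its adult and its E16.5 libraries in the same inferred set. Heart ran one way across the sets, with the adult libraries in set 3 and the E16.5 libraries in set 2, and kidney and lung ran the other way. Heart, kidney and lung were weighted so that set differences cancel if they add equally in each tissue, which was not tested. So weighted, they gave a difference of 0.0553 ± 0.00992 at Cm1327 (limma adjusted p = 0.000131) and 0.0965 ± 0.0218 at Gm1303 (limma adjusted p = 0.00160), with 17.8% of all sites called. Gm1509 gave 0.0304 and did not pass in that comparison. Within set 3, and chosen after the data were seen, adult heart scored higher than E16.5 kidney, liver and lung by 0.0701 ± 0.0132 at Cm1327 (limma adjusted p = 0.000231). Gm1303 differed there by 0.106 ± 0.0291 (limma adjusted p = 0.00823), with 17.8% of all sites called. Within set 2, adult kidney and lung exceeded E16.5 brain and heart by 0.0296 ± 0.0115 at Cm1327 (limma adjusted p = 0.141) and by 0.0461 ± 0.0252 at Gm1303 (limma adjusted p = 0.404). Neither passed there, with 5.61% of all sites called. Tissue as well as stage differs in both comparisons.

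The earliest samples were the E9.5 whole heads, where Cm1327 and Gm1747 had their lowest group means. Cm1327 scored 0.824, 0.847 and 0.840 in E9.5 head, 0.966, 0.937 and 0.923 in E16.5 brain and 0.959, 0.961 and 0.973 in adult brain. All E9.5 libraries lay below all brain libraries of both later stages. E16.5 brain was higher than E9.5 head by 0.105 ± 0.0162 (limma adjusted p = 4.87e-05), and these libraries were in the same inferred set. That call was lost from 5′ ends alone, where the difference was 0.0456 (limma adjusted p = 0.0651), and after thinning all libraries to the shallowest (0.0968; limma adjusted p = 0.185). Adult brain was higher than E9.5 head by 0.127 ± 0.0162 (limma adjusted p = 8.78e-07). Of the 7 sites, 1 was called higher in E16.5 brain and 3 in adult brain, against 6.54% and 30.8% of all tested sites. Whole head holds tissues other than brain, so age and tissue both differ here. Adult brain was in inferred set 1 and E9.5 head in set 2. At every site, inferred set therefore differs as well between adult brain and E9.5 head.

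Gm1303 scored 0.763, 0.870 and 0.857 in E9.5 head, 0.879, 0.909 and 0.955 in E16.5 brain and 0.945, 0.924 and 0.957 in adult brain. The E9.5 libraries lay below the others, and the E16.5 and adult libraries overlapped. Adult brain exceeded E9.5 head by 0.112 ± 0.0356 (limma adjusted p = 0.0229), a call lost without adult brain library 1 or 3 or head library 1, where the difference was 0.0784 to 0.110 (limma adjusted p = 0.0573 to 0.119). E16.5 brain exceeded E9.5 head by 0.0843, which did not pass. Gm1747 scored 0.932, 0.924 and 0.884 in E9.5 head, 0.945, 0.955 and 0.932 in E16.5 brain and 0.965, 0.971 and 0.977 in adult brain. Its adult brain libraries lay above the libraries of both earlier stages. Adult brain exceeded E9.5 head by 0.0578 ± 0.0173 (limma adjusted p = 0.0166), a call lost without adult brain library 3 or head library 3, where it was 0.0547 (limma adjusted p = 0.0547) and 0.0429 (limma adjusted p = 0.102). The calls of both sites were also lost from 3′ ends alone, with equal medians and after thinning.

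**Figure D3:**
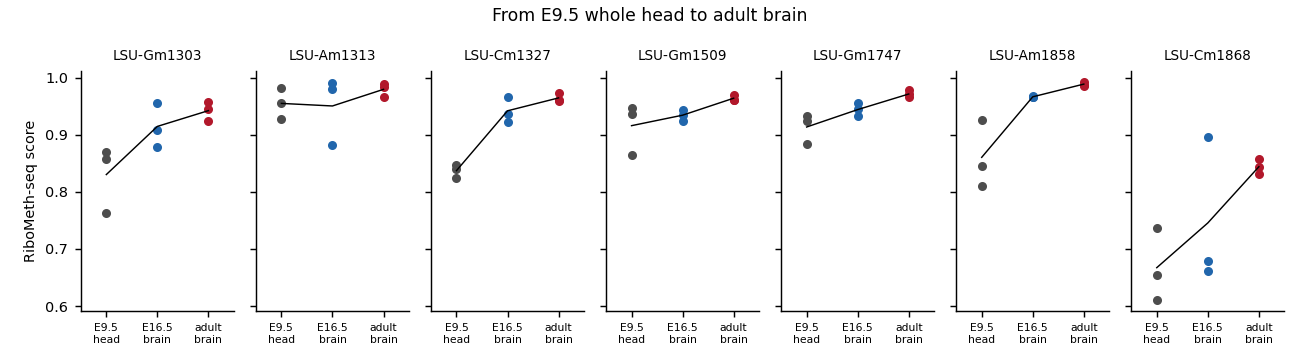
Score of each site in the 3 libraries each of E9.5 whole head, E16.5 brain and adult brain, with lines through the means. Cm1327 shows the E9.5 libraries between 0.824 and 0.847 and all brain libraries at 0.923 or above.

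The stage difference of Cm1327 was unequal between tissues by the F test of that difference (limma adjusted p = 0.0465), with 13.1% of all sites called. The E16.5 tissues themselves differed at Cm1327 (limma F test, adjusted p = 0.0182), with 16.8% of all sites called. Group means at E16.5 were 0.942 in brain, 0.928 in kidney, 0.907 in lung, 0.892 in heart and 0.876 in liver. Brain and heart were in inferred set 2 and the others in set 3, so tissue and set are mixed in this test. Within sets, heart minus brain was -0.0494 (limma adjusted p = 0.115; 1 of 107 sites called). Liver minus kidney and lung was -0.0415 (limma adjusted p = 0.0643; 10 of 107 called). Lung minus kidney was -0.0214 (limma adjusted p = 0.506; 0 of 107 called). None of the 3 passed at Cm1327. The adult means ran from 0.939 in lung to 0.975 in liver. Between adult tissues the limma F test called 0 of the 7 sites, with 1 at an unadjusted p below 0.05, against 4.67% of all sites called. The E16.5 call was lost without brain library 1 or liver library 3 (limma adjusted p = 0.0594 to 0.0892), and the unequal stage difference in 23 of the 30 fits without 1 library (limma adjusted p = 0.059 to 0.106). From 5′ or 3′ ends alone neither was called, and for the E16.5 tissues the adjusted p was 0.0996 from 5′ ends and 0.202 from 3′ ends (limma F test). The E16.5 call was also lost on a log2 scale, with equal medians, after thinning and when fitted on its own groups (limma adjusted p = 0.0721, 0.159, 0.555 and 0.444). In the order of the 11 group means, only E9.5 head was separated from its neighbour, E16.5 liver, and in the other 9 of 10 neighbouring pairs the libraries overlapped.

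Am1313 scored 0.832 or above in every library but 4. It scored 0.565, 0.970 and 0.991 in adult heart and 0.983, 0.960 and 0.965 in E16.5 heart. The low library was replicate 1 there, and replicate 1 was likewise low elsewhere. It stood at 0.590 for E16.5 kidney, 0.379 for E16.5 liver and 0.527 for E16.5 lung. These are the 4 groups of the inferred set 3. In E16.5 liver library 1 the site held 97 read ends at 3′ and 0 at 5′, with flanking means of 118 and 42.7. The excess lay in 3′ ends in all 4 libraries, where 3′ ends at the site reached 0.574 to 0.888 of the flanking mean, and 5′ ends at most 0.0502. With those libraries scored from 5′ ends, the group means lay between 0.919 and 0.979, and the range over groups was 0.0606, against 0.211 uncorrected. The difference between stages was 0.0762 uncorrected and 0.00796 corrected, and neither passed.

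**Figure D4:**
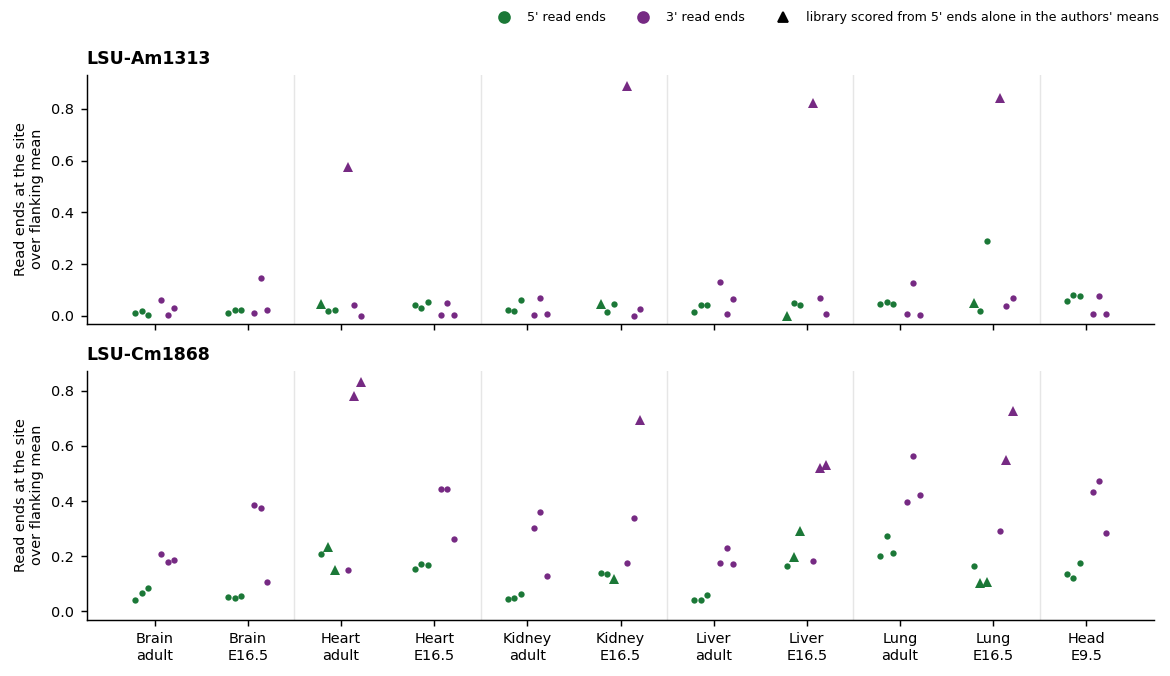
Read ends at Am1313 and Cm1868 over the mean of the 12 flanking nucleotides, for 5′ ends in green and 3′ ends in purple, in every library. Triangles are the libraries scored from 5′ ends alone in the authors' means. At Am1313 the 4 corrected libraries stand out in 3′ ends. At Cm1868 the 5′ score, which uses the weighted mean of the neighbours, is above the 3′ score in 32 of 33 libraries, corrected or not.

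The lung difference of Cm1868 changed sign with the correction and then passed the test. Signs also changed at Cm1868 in heart and kidney and at Am1313 in heart, kidney and liver, where neither score passed. Cm1868 scored 0.654, 0.488 and 0.628 in adult lung, against 0.727, 0.532 and 0.3996 in E16.5 lung, and these groups overlapped. The uncorrected difference was 0.0376 ± 0.113 and did not pass. Corrected, E16.5 lung scored 0.727, 0.890 and 0.888, all above adult lung, and adult minus E16.5 was -0.244 ± 0.0655 (limma adjusted p = 0.00807), with 2.8% of all sites called lower. The corrected value sets 5′ ends in E16.5 lung libraries 2 and 3 against both kinds of end in adult lung. Scored from 5′ ends in all libraries, the difference was -0.115 ± 0.0303 (limma adjusted p = 0.00516; 2.8% of all sites called lower), and from 3′ ends it was 0.0629 and did not pass. E16.5 lung library 3 held 33 read ends at the site, and without it the corrected difference was -0.218.

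Cm1868 also had the widest levels of the 7 sites. Adult brain gave 0.831, 0.857 and 0.844 and adult liver 0.860, 0.824 and 0.850, the highest and narrowest groups. Adult heart gave 0.825, 0.352 and 0.291 uncorrected and 0.825, 0.756 and 0.837 corrected. The range of group means was 0.355 uncorrected and 0.254 corrected, with adult lung lowest after the correction at 0.590 ± 0.0893 (SD, n = 3). On the corrected score the adult tissues differed at this site (limma F test, adjusted p = 0.0466), with 6.54% of all sites called. The stage difference was unequal between tissues there as well (limma F test, adjusted p = 0.0232), with 15% called. That score sets 5′ ends in adult heart libraries 2 and 3 against both kinds of end in the other adult tissues. For adult tissues the adjusted p was 7.1e-06 from 5′ ends alone and 0.657 from 3′ ends alone (limma F test). For the stage difference it was 0.000117 and 0.732 (limma F test). From 5′ ends 9.35% and 20.6% of all sites were called. Adult brain and liver were in inferred set 1, kidney and lung in set 2 and heart in set 3. Tissue and set are thus mixed among adults. Within set 2, corrected adult lung minus adult kidney was -0.197 and did not pass (limma adjusted p = 0.124; 1 of 107 sites called). Within set 1, adult liver minus adult brain was 0.000881 and did not pass. Adult brain exceeded E9.5 head by 0.177 ± 0.0655 on the corrected score (limma adjusted p = 0.0328), with 35.5% of all sites called higher. The uncorrected difference was the same, at 0.177 ± 0.113, and did not pass. No library of these brain and head groups was corrected at this site, and the groups were in different inferred sets. Only the spread that the model shares over all groups became smaller.

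The 5′ and 3′ read ends gave different levels at several sites. Cm1868 averaged 0.864 from 5′ ends and 0.638 from 3′ ends, with the 5′ score higher in 32 of 33 libraries. Cm1327 ran the same way, at 0.952 and 0.914, in 29 of 33 libraries. Am1858 ran the opposite way, at 0.870 from 5′ ends and 0.986 from 3′ ends, with the 5′ score higher in 4 of 33 libraries. Gm1303 and Gm1747 were also lower from 5′ ends, at 0.862 and 0.933, against 0.917 and 0.975 from 3′ ends. Am1313 and Gm1509 averaged 0.959 and 0.951 from 5′ ends, against 0.869 and 0.901 from 3′ ends.

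**Figure D5:**
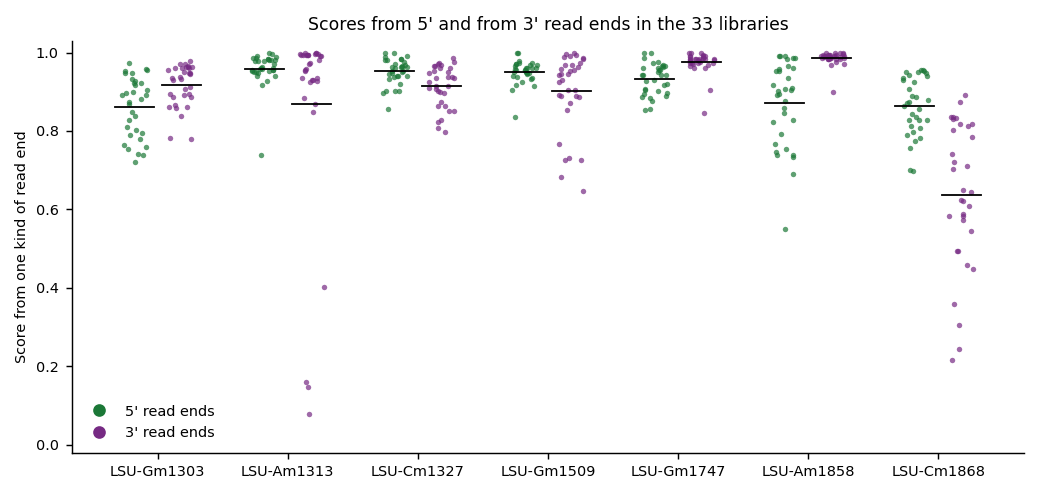
Score computed from 5′ read ends (green) and from 3′ read ends (purple) at each site in the 33 libraries, with lines at the means. The 3′ scores of Am1858 gather near 0.986, and those of Cm1868 run down to 0.215.

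Am1858 had group means from 0.781 to 0.989 from 5′ ends and from 0.961 to 0.994 from 3′ ends. Its summed score was 0.987, 0.990 and 0.989 in adult liver, against 0.904, 0.952 and 0.862 in E16.5 liver, and 0.935, 0.975 and 0.957 in adult heart, against 0.917, 0.940 and 0.648 in E16.5 heart. The liver groups were separate, and in heart the stages overlapped, with E16.5 library 3 far below the rest. The average stage difference was 0.0502 ± 0.0243 and did not pass (limma adjusted p = 0.104). From 5′ ends alone it was 0.0889 ± 0.03004 (limma adjusted p = 0.0122), with 60.7% of all sites called higher, and from 3′ ends alone it was -0.00637 and did not pass. Adult brain, at 0.989, stood apart from E16.5 brain, at 0.966, with no overlap of libraries, and that difference of 0.0222 did not pass. The test used a spread shared by all groups, with an SE of 0.0544. The libraries of adult and E16.5 brain had SDs of 0.00407 and 0.000893.

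On the uncorrected score Gm1747 had the highest mean and the smallest range of the 7 sites, with group means from 0.913 to 0.971. The average stage difference was 0.00642 ± 0.00774, with a 95% interval from -0.00951 to 0.0224, and did not pass. Adult lung gave 0.923, 0.963 and 0.940, against 0.944, 0.968 and 1 in E16.5 lung, where library 3 held 0 read ends at the site. A count of 0 there allows a score as low as 0.937. When all libraries were set to equal medians the average difference was -0.0271 (limma adjusted p = 0.0274), while Gm1303 stayed higher in adults at 0.0509 (limma adjusted p = 0.0160).

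Adult and E16.5 libraries were fully separate, adult above, at 3 of the 7 sites in brain, 2 in heart, 1 in kidney, 4 in liver and 1 in lung. Over all tested sites this was so for 44.9% in brain, 17.8% in heart, 24.3% in kidney, 51.4% in liver and 19.6% in lung. The shares of the 7 sites therefore lie near those of the whole list.

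By Pearson's r over the 11 group means, which share libraries and depth and are given as a description, the listed sites most like Cm1327 were LSU-Um4590 (r = 0.906) and SSU-Um354 (r = 0.905). Those most like Gm1303 were SSU-Um1804 (r = 0.961) and LSU-Um4590 (r = 0.920). Neither pair of values moved with the correction. For Gm1509 the nearest were LSU-Cm2338 (r = 0.929) and LSU-Gm3923 (r = 0.926), which dropped to 0.349 and 0.775 on the corrected score. For Gm1747 they were SSU-Gm683 (r = 0.924) and SSU-Gm1328 (r = 0.839), and on the corrected score 0.470 and 0.839. Among the 7 sites themselves Gm1303 was most like Cm1327, with r = 0.844 on either score.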

How the data were processed

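RNA from 33 samples was cut with alkali and short gel-purified fragments were sequenced on an Ion Proton, per the labels' protocols. Tools named in the submitters' processing notes are Bowtie2 2.3.4.1 and cutadapt 2.0; the source of the rRNA reference was not stated. The authors deposited counts of 5′, 3′ and summed read ends per nucleotide, as raw counts. The deposited score is a fraction from 0 to 1, and rebuilding it from the deposited counts matched within 5.0e-10. The authors' overview gives a mean score per group, corrected for barcodes in 107 of 1188 means, of which 98 were rebuilt from 5′ ends. Every group sheet has column names of adult lung, so groups were taken from sheet names. Sheet means matched their own group in the overview at 84 to 104 of 108 sites, and another group at 2 at most.

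The deposited scores were tested with limma 3.58.1 in R 4.3.3, in a model of 11 group means over all libraries with a mean-variance trend. Sites needed a flanking mean of at least 10 in every library, which left 107 of 108. P-values were adjusted over these by Benjamini-Hochberg, and a site was called below 0.05. Alternatives were read ends of one kind, the corrected score, other neighbours, scales, depths, filters and models, and leaving out libraries. The tests recovered most of the known differences in simulated data, which were larger than the average differences called here. The simulation held no shifts between libraries or library sets, so it does not bear on whether the calls at these sites hold. The sites and tests were chosen with earlier results of these data known. Sites singled out by name as alike were the 2 with the highest r for each site called in any test of the uncorrected score. Replicate numbers were not treated as pairing adult with E16.5 libraries of a tissue. Of 15 such pairs, 3 had a correlation over 0.1, and the values ran from -0.725 to 0.471. In 4 of 15 the own number gave the highest correlation. With 3 libraries in each group the check cannot exclude pairing. That check did not cover groups of one inferred library set, and replicate 1 was low at Am1313 in every group of set 3.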

Additional observations from a re-analysis of the deposited data

Results flagged for a closer look

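At Cm1327 the difference between adult and E16.5 tissue was unequal between the 5 tissues, by the limma F test of that difference (adjusted p = 0.0465). The difference was 0.0988 in liver, 0.0812 in heart, 0.0321 in lung, 0.0266 in kidney and 0.0226 in brain. The call was lost from 5′ or 3′ ends alone, with equal library medians, after thinning to the shallowest library, without the 4 shallowest libraries, and in 23 of 30 fits that left out 1 library. The E16.5 libraries of liver and heart were in different inferred library sets, as were those of the adults.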

How the results depend on the processing

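The main counts of the 7 sites called were 3 for the average over tissues, 0 in brain, 1 in heart, 0 in kidney, 2 in liver, 2 in lung, 1 for E16.5 brain over head, 3 for adult brain over head, 1 for the stage difference between tissues, 0 among adult and 1 among E16.5 tissues. From 5′ ends alone, where far more of all sites were called (56.1% higher in liver, 26.2% by the summed score), heart had 2, kidney 1, liver 5, E16.5 brain over head 2, adult brain over head 5, the difference between tissues 2, adult tissues 1 and E16.5 tissues 2. The 2 in E16.5 tissues and in E16.5 brain over head were Gm1303 and Cm1868, not Cm1327. In lung the count stayed at 2, with Gm1303 higher and Cm1868 lower. Over all tested sites, 5′ ends called 14% in heart, 19.6% in kidney, 57.9% in liver and 21.5% in lung, in either direction. The shares were 24.3% for E16.5 brain over head and 57.9% for adult brain over head. By the F tests they were 20.6% for the difference between tissues, 9.35% for adult tissues and 30.8% for E16.5 tissues. From 3′ ends alone, the average had 1, heart 0, liver 1, lung 0, adult brain over head 1, the difference between tissues 0 and E16.5 tissues 0. Of all tested sites, 20.6% were called from 3′ ends for the average and 2.8% in heart. For the other counts from 3′ ends the share over all sites is not given here. Those counts are therefore no result about the 7 sites alone. With the correction, the difference between tissues had 2 (15% of all sites called) and adult tissues 1 (6.54%). For the settings that follow, and for leaving out 1 library, the share over all sites was not worked out. Their counts are therefore no result about the 7 sites alone. With the nearest 2 neighbours, heart had 2, liver 1, lung 1 and adult tissues 1. On a log2 scale, lung had 0, adult tissues 3 and E16.5 tissues 0. With equal library medians, heart had 0, liver 0, lung 1, adult brain over head 1 and the difference between tissues 0. The site called in lung was then neither Gm1303 nor Gm1509, the sites of the main fit. The average kept Gm1303 alone of its main calls, and Gm1747 was called lower. Thinned, heart had 0, liver 0, lung 1, E16.5 brain over head 0, adult brain over head 1, the difference between tissues 0 and E16.5 tissues 0. With a flanking minimum of 50, which left 3 of the 7 sites, the average had 1, liver 1, lung 0 and adult brain over head 1. Fitted on their own groups, brain had 1, heart 0, lung 0, adult brain over head 5, adult tissues 1 and E16.5 tissues 0. The replicate block gave heart 2, kidney 1 and E16.5 tissues 2. Among settings added after seeing the data, leaving out the 4 shallowest libraries gave lung 1, the difference between tissues 0 and E16.5 tissues 2, and the corrected score without E16.5 lung library 3 gave lung 1, adult brain over head 5 and adult tissues 1.

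Leaving out 1 library at a time gave 2 to 4 for the average, 0 in brain, 1 in heart, 0 to 1 in kidney, 1 to 2 in liver, 0 to 1 in lung, 1 for E16.5 brain over head, 1 to 3 for adult brain over head, 0 to 1 for the difference between tissues, 0 to 1 among adult and 0 to 2 among E16.5 tissues. Differences of called results that turned sign were Gm1509 (average -0.00106) and Gm1747 (average -0.0271) with equal medians, Gm1509 in lung from 5′ ends (-0.00186), Gm1747 in adult brain over head from 3′ ends (-0.0187), and Cm1868 in lung with the correction (-0.244), from 5′ ends (-0.115) and corrected without E16.5 lung library 3 (-0.218). Sign changes where neither fit made a call are not listed. The cause of these shifts was not tested, apart from the minimum of 50, which tests fewer sites. Depth was lowest in E16.5 lung library 3, with 463388 read ends.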
